A study of Mus musculus with 12 samples.

Results

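The genes described here are named as nuclear subunits of the mitochondrial respiratory chain and ATP synthase. They were measured by RNA-seq in primary mouse hepatocytes. They were chosen by symbol: Nduf genes of the A, B, C, S and V series, Sdha to Sdhd, Uqcr genes, Cox4 to Cox8 genes and Atp5 genes, without names ending in -ps, and with at least 10 counts in at least 3 of the 12 libraries. Of the 46983 genes in the files, 46488 had a symbol, 88 fitted the name pattern and 82 also met the count minimum. These comprised 37 genes of complex I, 4 of complex II, 8 of complex III, 16 of complex IV and 17 of complex V. Ndufa4, now known as a complex IV subunit, and its relative Ndufa4l2 were counted with complex IV. The rule used names and detection only, and all 82 genes entered the test. The rule therefore kept 3 genes annotated as processed pseudogenes, and Atp5s, which was set apart as factor B within complex V. All 82 are called subunit genes here for short.

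The donors of the cells carried either the unchanged gene (AEG-1-WT, called wild type here) or the allele AEG-1-L24K/L25H (called knock-in), and were littermates from crosses of heterozygotes, made with CRISPR/Cas9 on a C57BL/6/J background and fed regular chow. AEG-1, also called metadherin, is known to bind RXR, the DNA-binding partner of the fatty acid receptor PPARα. Cells of each genotype were left untreated or received CP775146, a PPARα agonist, at 2.5 µM for 24 h (the unit's prefix is a symbol-font character in the labels, read here as micro). That gave 4 groups of 3 libraries: untreated wild type, treated wild type, untreated knock-in and treated knock-in. The labels name no vehicle for the untreated cells, and give neither the animals' age at isolation nor whether different mice or separate cultures lie behind the 3 libraries of each group. The p-values therefore measure the spread between these libraries, which may be technical.

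The respiratory chain passes electrons from NADH (complex I) and succinate (complex II) through ubiquinone to complex III, and through cytochrome c to complex IV, which reduces oxygen. Complexes I, III and IV pump protons across the inner membrane, and complex V, the ATP synthase, uses the gradient to make ATP. Most subunits are encoded in the nucleus and the rest in mitochondrial DNA. In liver the chain receives the electrons released by fatty acid oxidation, the pathway for which PPARα is best known.

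Total counts were 26956032 to 34885451 per library, so that 3 counts, used as the limit of detection, equal 0.086 to 0.111 CPM, the usual depth-scaled count. The classical PPARα targets on the control list all rose with CP775146 in both genotypes (6 of 6 each), among them Ehhadh, a peroxisomal beta-oxidation enzyme, by 6.21 ± 0.05 log2 in wild type and 6.23 ± 0.05 in the knock-in. The defining hepatocyte marker Alb, albumin, was abundant in every group. The 7 hepatocyte markers found summed to 124634 to 130924 CPM in the wild-type libraries and 80541 to 93399 CPM in the knock-in libraries. The 8 endothelial markers summed to 99.6 to 161 CPM in wild type and 40.3 to 67.1 CPM in the knock-in, and the 8 stellate cell markers to 160 to 220 and 67.9 to 122 CPM. The endothelial sums were mostly Stab2 and Flt1, while the defining Pecam1 was at a mean of 4.27 (untreated) and 4.58 CPM (treated) in wild type and 3.99 and 3.52 CPM in the knock-in, and the stellate sums were mostly Reln. The 8 macrophage markers summed to 213 to 273 CPM in wild type and 148 to 194 CPM in the knock-in, most of it Cd68. By gene, most went the other way. Of the 7 macrophage markers tested, 6 had a higher and 1 a lower estimate in the untreated knock-in, with a median of 0.32 log2. With the agonist 5 had a higher and 2 a lower estimate, with a median of 0.38 log2. The 6 cholangiocyte markers summed to 15.1 to 18.02 CPM in untreated wild type and 32.8 to 52.5 CPM in the other groups, and the 5 erythroid markers to at most 4.15 CPM. In bulk RNA, fewer cells of a type and less RNA per cell cannot be told apart. The part of these marker differences in the genotype comparisons below was not tested.

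Counts of the 82 genes made up 0.898 to 0.939% of all counts in untreated wild type and 0.945 to 1.02% in treated wild type. The share was 0.972 to 0.994% in untreated knock-in and 1.01 to 1.05% in treated knock-in. Within each genotype every treated library was above every untreated one. On library sizes scaled by TMM, which sets the bulk of genes equal between libraries, the summed level was 9267 ± 190 CPM (SD, n = 3) in wild type without and 10661 ± 486 CPM with the agonist, and 9247 ± 106 CPM in the knock-in without and 10116 ± 160 CPM with it. On this scale the untreated genotypes lay within 1 SD of each other and both treated groups were higher. All CPM below are on this scale.

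Levels between genes were compared per length, as CPM per kilobase of exon (RPKM, mean of the 4 groups). The median subunit gene had 52.0 RPKM, against 4.45 for all 15664 genes tested. Medians were 45.3 RPKM in complex I, 77.3 in complex II, 105 in complex III, 102 in complex IV and 46.8 in complex V. The highest gene of each complex was Ndufb9 (180 RPKM), an accessory subunit of complex I, Sdhd (139), a membrane anchor of complex II, Uqcrfs1 (150), the Rieske iron-sulfur protein of complex III, Cox6b1 (308), an outer subunit of complex IV, and Atp5b (338), the catalytic beta subunit of ATP synthase. Atp5a1, the alpha subunit that alternates with beta in the catalytic head, followed closely at 327 RPKM. The exon length counts every annotated exon and thus lowers the RPKM of genes with long alternative exons.

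Some genes at the low end of this order have near-identical copies elsewhere in the genome. Cox7c of complex IV had 4.13 RPKM, Atp5l of the ATP synthase membrane part 1.47 and Atp5g2, which encodes the rotating c subunit, 0.703. Of the 50-base words of their main transcripts, 53.0%, 68.5% and 87.4% also occur in a gene at another locus, and the counting, per the file headers, left out reads that map to several places. Of the 82 genes, 13 shared over 20% of their words with another locus, a limit set after the values were seen. Their median level was 20.1 RPKM, against 61.5 RPKM for the other 69. Low levels were not confined to such genes: Atp5s had 4.47 RPKM with 0% shared. Ndufb2 had 3.75 RPKM and Atp5g1, a second c subunit gene, 1.17, with 0.0694% and 11.6% shared. The main transcripts of these 2 genes are long (4371 and 4715 bases), which lowers both the RPKM and the share, and Atp5g1 shares words with 6 pseudogenes. The 3 members annotated as processed pseudogenes (Ndufa11b, Ndufs6b and Cox6c2) can share reads with their parent genes, so their levels and changes are uncertain. Of the 82 genes, 23 overlap an exon of another gene, 4 of them over more than 20% of their length (Ndufa13 with Tssk6, Ndufb6 with Smim27, Cox5a with Gm26631 and Atp5o with Gm15976), and since reads over more than 1 gene were left out, reads in the overlap are missing from both genes of a pair.

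**Figure D1:**
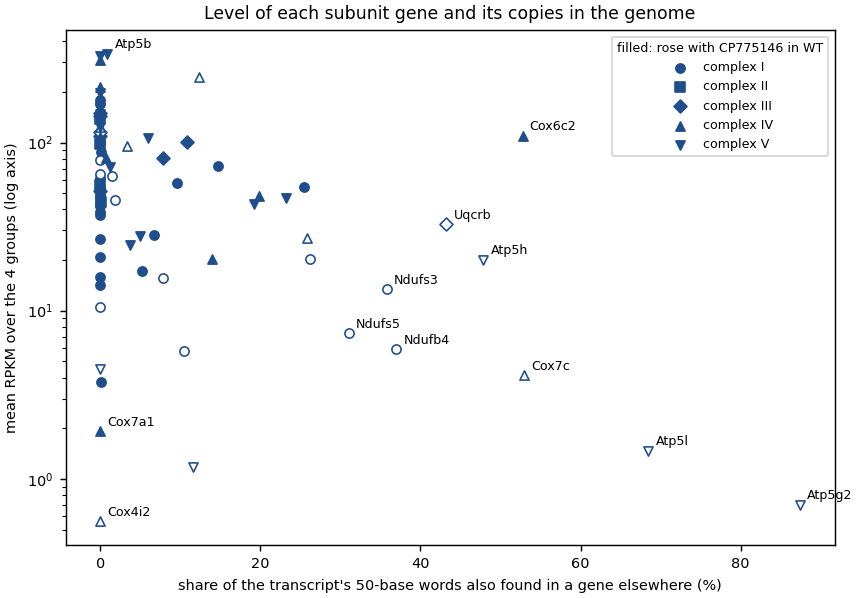
Mean RPKM of each of the 82 genes (log axis) against the share of its main transcript's 50-base words found in a gene at another locus, with the marker shape giving the complex and filled markers the genes that rose with CP775146 in wild type. Of the 13 genes over 20%, 3 are filled, against 53 of the other 69, and the 3 genes over 50% with a level under 5 RPKM are Cox7c, Atp5l and Atp5g2.

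Tissue-specific isoforms had at most 1.41 CPM in any library, with one exception. Cox7b2, Cox8b and Cox8c, known from testis or muscle, had 0 counts in all 12 libraries. Cox6a2, the heart and muscle form, had 11 counts in all. Cox4i2, a form of subunit 4 known from lung and hypoxia, had 0.256 to 0.702 CPM with no call in any comparison. Cox6b2, a testis form below the count minimum, had 2 counts over the 3 untreated and 26 over the 3 treated wild-type libraries, and 6 and 29 in the knock-in. The ratios were 12.3 (95% exact interval 3.07 to 107) and 4.83 (1.97 to 14.2), intervals that cover counting error only. Cox7a1, the muscle form of subunit 7a, was at 0.366, 0.564 and 0.394 CPM in wild type without and 0.723, 0.783 and 1.41 CPM with the agonist, a rise of 1.12 ± 0.31 log2 (adjusted p = 0.0042) that lost its call without treated wild-type replicate 3 (adjusted p = 0.0691). In the knock-in Cox7a1 was at 0.505, 0.733 and 0.597 CPM untreated and 0.73, 0.859 and 0.732 CPM treated, without a call (adjusted p = 0.389). Of the 6 muscle markers, Myh7, Tnnt3 and Ckm had 0 counts throughout, while the sum, nearly all Acta1, was 40.9 to 48.3 CPM in wild type without and 72.5 to 83.4 CPM with the agonist and 14.5 to 17.8 and 27.02 to 29.4 CPM in the knock-in. The part of these markers in the Cox7a1 values was not tested. The exception was Ndufa4l2, a relative of Ndufa4 known as a hypoxia-induced gene, at 177 RPKM in untreated wild type.

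The promoters of the subunit genes were searched for letters bound by factors known to drive respiratory genes. Genes that rose with the agonist and genes that did not were searched alike. The part of these motifs in the agonist's effect was not tested. The RefSeq table (GRCm38.p6) held promoters for 65 of the 82 genes, 70 windows of 300 bases (250 before to 50 after the start), and was searched on both strands. TGCGCANGC, the NRF1 motif, was in 13 of the 70 (18.6%), against 4.16% of all 32851 promoters in the table. CCGGAAG, for GABPA and other ETS factors, was in 16 (22.9%, against 8.86%), AAGATGGCG, for YY1, in 7 (10%, against 1.4%), and TCAAGGTCA, for ESRRA, in 2 (2.86%, against 0.423%). GGGCGG, for SP1, was in 27 (38.6%, against 35.7%). A PPAR element, taken as AGGTCA repeated after 1 base with at most 1 mismatch, was in 0 of the 70, against 0.554% of all promoters; it shares its AGGTCA with the ESRRA motif. A match describes letters and not binding, and no match says only that these letters are not in the window. The windows below show a promoter with matches to several motifs (Sdhd), examples with 1 kind of motif among genes described below, and the gene with the largest rise in complex III, which held none. Motif matches are in capitals, each on the gene's strand 5′ to 3′. Sdhd lies at chr9:50603800-50604099 (minus strand) and holds NRF1, SP1, reversed ETS and reversed ESRRA letters. Sdha lies at chr13:74350191-74350490 (minus), Atp5k at chr5:108434350-108434649 (minus), Ndufa9 at chr6:126849095-126849394 (minus), Atp5g3 at chr2:73911277-73911576 (minus) and Uqcr10 at chr11:4704295-4704594 (minus).
Sdhd: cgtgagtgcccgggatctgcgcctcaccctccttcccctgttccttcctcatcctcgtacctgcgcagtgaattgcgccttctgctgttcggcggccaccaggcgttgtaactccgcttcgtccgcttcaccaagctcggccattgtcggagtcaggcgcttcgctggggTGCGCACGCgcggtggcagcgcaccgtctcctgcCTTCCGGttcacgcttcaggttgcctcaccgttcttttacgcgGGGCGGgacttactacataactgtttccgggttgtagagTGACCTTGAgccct
Sdha (NRF1, at 2 places): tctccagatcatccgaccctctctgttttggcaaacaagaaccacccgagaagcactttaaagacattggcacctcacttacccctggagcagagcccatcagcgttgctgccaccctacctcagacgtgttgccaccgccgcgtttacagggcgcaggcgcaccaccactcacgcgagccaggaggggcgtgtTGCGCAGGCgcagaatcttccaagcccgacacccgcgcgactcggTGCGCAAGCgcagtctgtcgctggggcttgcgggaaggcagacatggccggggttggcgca
Atp5k (ETS, reversed): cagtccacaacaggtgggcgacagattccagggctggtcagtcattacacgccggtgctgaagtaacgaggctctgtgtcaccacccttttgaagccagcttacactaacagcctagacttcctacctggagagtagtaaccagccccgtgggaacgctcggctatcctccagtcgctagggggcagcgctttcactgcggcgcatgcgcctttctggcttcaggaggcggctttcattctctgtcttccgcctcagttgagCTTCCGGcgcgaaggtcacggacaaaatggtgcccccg
Ndufa9 (YY1): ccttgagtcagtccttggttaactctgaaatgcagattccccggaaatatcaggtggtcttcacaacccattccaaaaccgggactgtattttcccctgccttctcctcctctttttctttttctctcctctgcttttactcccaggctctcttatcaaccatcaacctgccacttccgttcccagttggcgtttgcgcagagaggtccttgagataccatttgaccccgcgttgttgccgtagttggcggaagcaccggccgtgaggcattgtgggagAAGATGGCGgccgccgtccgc
Atp5g3 (ESRRA, reversed): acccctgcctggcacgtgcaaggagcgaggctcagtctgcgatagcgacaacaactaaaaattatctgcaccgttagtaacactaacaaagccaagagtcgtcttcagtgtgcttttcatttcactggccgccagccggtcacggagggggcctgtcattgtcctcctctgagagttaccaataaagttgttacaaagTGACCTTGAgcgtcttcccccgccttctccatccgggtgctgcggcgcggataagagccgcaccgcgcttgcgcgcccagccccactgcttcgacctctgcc
Uqcr10 (no match): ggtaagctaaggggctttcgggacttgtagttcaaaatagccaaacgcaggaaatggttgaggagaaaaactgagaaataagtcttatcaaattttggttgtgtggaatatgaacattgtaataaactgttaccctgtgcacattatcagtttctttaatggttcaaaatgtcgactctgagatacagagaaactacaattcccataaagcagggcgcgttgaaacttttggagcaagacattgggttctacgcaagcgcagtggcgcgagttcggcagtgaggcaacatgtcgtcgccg

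The first comparison asked how PPARα activation changed these genes in wild-type hepatocytes. CP775146 raised 56 of the 82 subunit genes (68.3%) and lowered none (edgeR quasi-likelihood test, Benjamini-Hochberg adjusted over all 15664 genes tested, called below 0.05). Across all genes tested, 22.7% rose and 22.3% fell. All treated libraries lay above all untreated ones for 46 of the 82 genes and below them for 0, against 24.6% and 24.4% of all genes. The rises were small: the 56 genes rose by 7.26% to 117% with a median of 16.6%, and only Cox7a1 passed 2-fold. The median of the 82 was 0.18 log2, beside -0.01 for all genes. At an unadjusted p below 0.05, 60 rose and 0 fell, and DESeq2 and limma voom each called 0 falls (52 and 57 rises). Scaling by total counts, which moved the median of all genes by -0.10 log2, gave 29 rises and 3 falls (Ndufa8, Cox6a1 and Atp5h), while the subunit median stayed 0.18 above that of all genes. Treated replicate 2 had the smallest and replicate 3 the largest median change of the treated libraries, and the count was 64 without the first and 40 without the second.

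**Figure D2:**
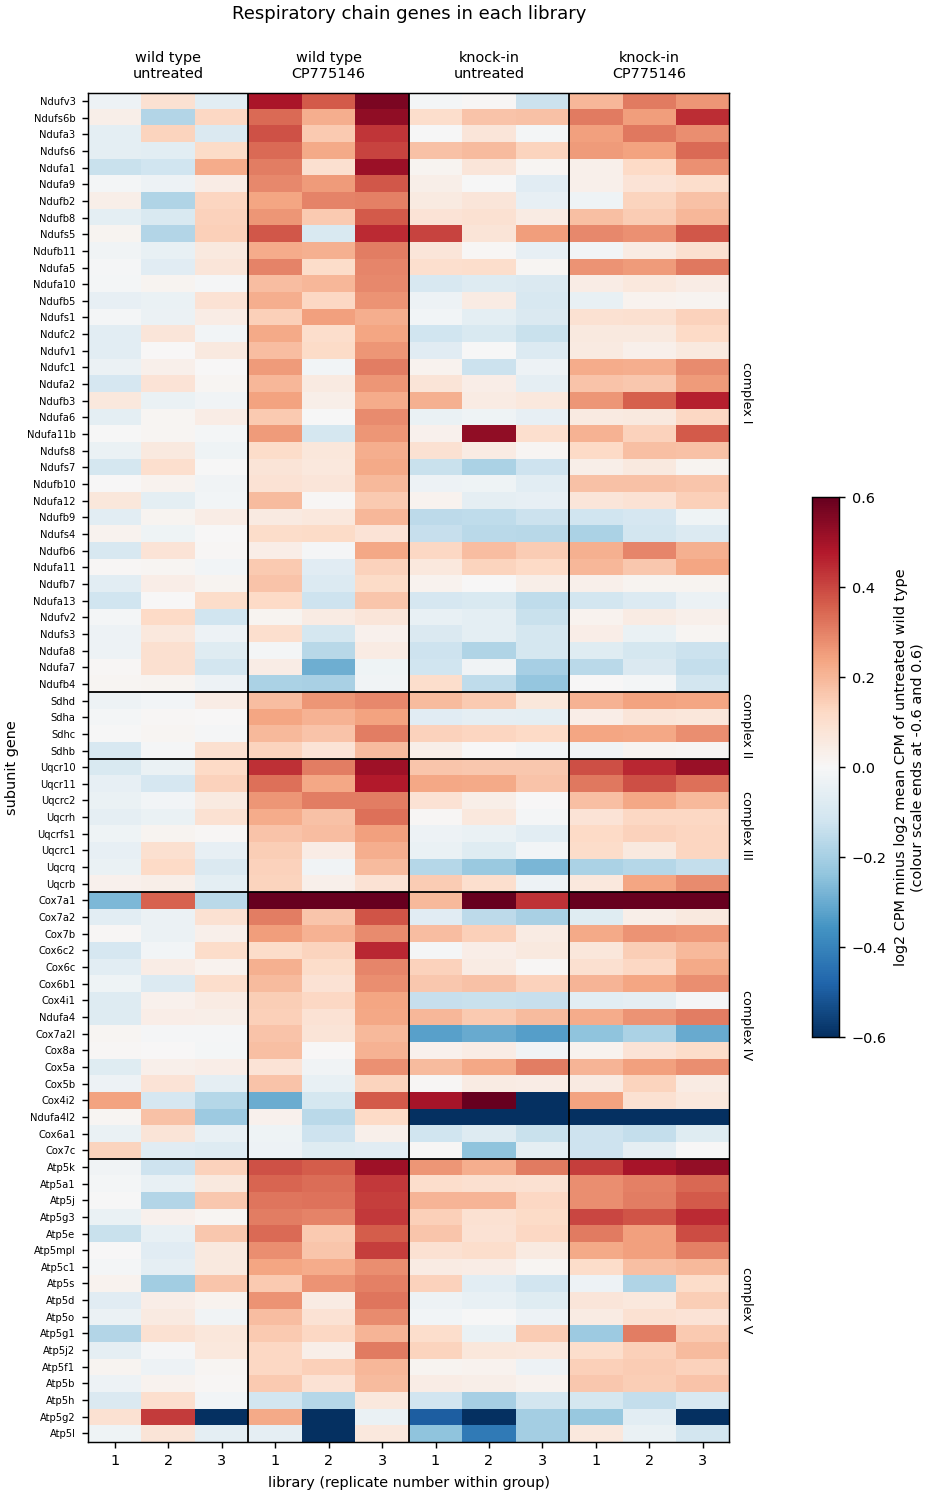
log2 CPM of 81 of the 82 genes (rows, by complex) in each of the 12 libraries (columns), minus the log2 mean of the 3 untreated wild-type libraries, with colours ending at -0.6 and 0.6. Most rows are red in the treated wild-type columns, palest in replicate 2, and less red in the treated knock-in columns, and Ndufa4l2 is blue in all 6 knock-in libraries; on total-count scaling 3 rows (Ndufa8, Cox6a1 and Atp5h) were lower in treated than in untreated wild type.

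In complex I, 24 of 37 genes rose in wild type, with a median of 0.17 log2 for the 37. The 7 core subunits, which carry the flavin, the iron-sulfur clusters and the ubiquinone site, gave 5 rises. Ndufs1, the largest iron-sulfur subunit, rose by 0.20 and Ndufv1, which binds NADH, by 0.19 log2, while Ndufv2 (0.05) and Ndufs3 (0.01, a gene with copies) had no call. Of the 30 accessory subunits 19 rose. The clearest was Ndufv3, a small subunit next to the NADH site, on chromosome 17 (31520115 to 31531326, plus strand, mm10). It was at 57.3, 62.4 and 56.0 CPM untreated and 82.1, 75.5 and 86.7 CPM treated, so that all treated libraries were above all untreated ones. The rise was 1.39-fold (0.48 ± 0.05 log2, adjusted p = 1.48e-08). Ndufa3 rose by 0.33, Ndufs6, needed late in assembly, by 0.32 and Ndufb8, a membrane-arm subunit, by 0.26 log2.

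Ndufb9, the most abundant complex I gene per length, was at 114, 120 and 123 CPM untreated and 124, 125 and 137 CPM treated. The groups did not overlap but lay close, and the rise of 0.11 ± 0.04 log2 (adjusted p = 0.0423) lost its call without untreated wild-type replicate 1 or treated replicate 3, and with RLE or total-count scaling, DESeq2 or a fit of the 2 groups alone (adjusted p 0.0221 to 0.901 over 21 alternatives). The rise of Ndufs4, an accessory subunit known from Leigh syndrome, was as marginal (0.10 ± 0.04 log2, adjusted p = 0.0482). Ndufs4 was at 66.9, 64.7 and 65.9 CPM untreated and 71.0, 71.2 and 69.6 CPM treated, and its call stood in 5 of 21 alternatives, and leaving out any of the wild-type libraries ended it.

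All 4 genes of complex II rose in wild type. Sdha, the flavoprotein that oxidises succinate (chromosome 13, 74322254 to 74350280, minus strand), was at 364, 369 and 368 CPM untreated and 433, 424 and 434 CPM treated. The groups did not overlap, at 1.17-fold (0.23 ± 0.03 log2, adjusted p = 1.61e-06). Sdhd, whose promoter is printed above, was at 157, 158 and 165 CPM untreated and 182, 193 and 196 CPM treated (0.25 ± 0.04 log2, adjusted p = 7.15e-06). The iron-sulfur subunit Sdhb rose by 0.14 log2 and the second membrane anchor Sdhc by 0.22.

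In complex III, 6 of 8 genes rose, with a median of 0.22 log2. Uqcr10, a small subunit (chromosome 11, 4701973 to 4704342, minus strand), was at 65.2, 67.6 and 75.6 CPM untreated and 94.1, 85.9 and 98.7 CPM treated, again without overlap (1.34-fold, 0.42 ± 0.05 log2, adjusted p = 2.2e-07). The core protein Uqcrc2 was at 242, 246 and 258 CPM untreated and 298, 308 and 308 CPM treated (0.29 ± 0.04 log2, adjusted p = 1.4e-07). Uqcrfs1, the Rieske protein that takes electrons from ubiquinol, went from 190, 196 and 195 to 218, 220 and 230 CPM (0.20 ± 0.04 log2, adjusted p = 2.8e-05). Uqcrq (0.10 log2) and Uqcrb (0.08 log2) had no call.

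In complex IV, 10 of 16 genes rose, with a median of 0.15 log2. The smallest adjusted p belonged to Cox7b, an X-linked subunit, at 88.4, 85.8 and 89.8 CPM untreated and 105, 102 and 107 CPM treated (0.25 ± 0.04 log2, adjusted p = 1.18e-05). Cox4i1, the main form of the regulatory subunit 4, was at 314, 338 and 343 CPM untreated and 368, 362 and 391 CPM treated (0.17 ± 0.04 log2, adjusted p = 0.000611). Cox6b1 was at 138, 132 and 151 CPM untreated and 160, 149 and 170 CPM treated, so the groups overlapped (0.19 ± 0.05 log2, adjusted p = 0.00176). The calls of Cox4i1 and Cox6b1 were lost with total-count scaling (adjusted p = 0.121 and 0.13). Ndufa4l2 was at 172, 192 and 147 CPM untreated and 173, 152 and 185 CPM treated, fully overlapping, with an adjusted p of 0.991.

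In complex V, 12 of 17 genes rose, including all 5 of the catalytic F1 head. Atp5a1 was at 884, 864 and 927 CPM untreated and 1136, 1125 and 1197 CPM treated, without overlap (1.29-fold, 0.37 ± 0.04 log2, adjusted p = 1.31e-09). Atp5b was at 1320, 1370 and 1353 CPM untreated and 1501, 1430 and 1536 CPM treated (0.14 ± 0.04 log2, adjusted p = 0.00125), a call lost with total-count scaling (adjusted p = 0.288). The head's gamma, delta and epsilon subunits Atp5c1, Atp5d and Atp5e rose by 0.25, 0.22 and 0.29 log2. Of the 3 genes for the c-ring, which turns as protons pass, Atp5g3 was called. It was at 267, 279 and 277 CPM untreated and 339, 337 and 369 CPM treated (0.34 ± 0.04 log2, adjusted p = 1.54e-08). Of the 4 peripheral stalk genes Atp5j, Atp5o and Atp5f1 rose by 0.35, 0.19 and 0.15 log2, while Atp5h (-0.07) had no call. Atp5k, of the membrane part, was at 35.3, 32.9 and 39.5 CPM untreated and 46.8, 46.1 and 51.0 CPM treated (0.42 ± 0.06 log2, adjusted p = 6.8e-07).

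Of the 26 genes without a call in wild type, 14 had at least 20 RPKM: Ndufa1, Ndufa7, Ndufa8, Ndufa12, Ndufa13, Ndufb6, Ndufv2, Uqcrb, Uqcrq, Cox5a, Cox5b, Cox6a1, Ndufa4l2 and Atp5h. Of the 13 genes sharing over 20% of their words with another locus, 3 rose, against 53 of the other 69.

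The same question in the knock-in gave 28 rises among the 82 genes (34.1%) and 0 falls, against 18.1% rising and 19.1% falling among all genes tested. For 50 of the 82 genes all treated libraries lay above all untreated ones, and for 0 below them, against 25% and 26.9% of all genes. At an unadjusted p below 0.05, 42 rose and 0 fell, and DESeq2 and limma voom called 29 and 44 rises and 0 falls. The median was 0.11 log2, beside -0.01 for all genes, and the 28 genes rose by 8.65% to 23.4%. The biological coefficient of variation was 5.1% (untreated) and 5.33% (treated) in wild type, against 2.59% and 2.63% in the knock-in, and the fit shares 1 spread over all groups. With each genotype's 2 groups fitted alone the count was 49 in the knock-in and 46 in wild type, so the order of the genotypes by count turned. With total-count scaling the knock-in had 15 rises. In the fit of all 12 libraries all 28 were also called in wild type, so the 28 were 100% of the knock-in calls and 50% of the wild-type calls.

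By complex, 11 of 37 genes rose in complex I (29.7%), 2 of 4 in complex II (50%) and 4 of 8 in complex III (50%). In complex V 9 of 17 rose (52.9%). In complex IV 2 of 16 rose (12.5%), below the 18.1% of all genes tested. Ndufv3 was at 58.1, 58.9 and 53.6 CPM untreated and 67.3, 72.8 and 70.3 CPM treated (0.30 ± 0.05 log2, adjusted p = 2.62e-05). Ndufc1 (0.29 log2), Ndufa3 (0.26) and Ndufb3 (0.26) had the next largest rises in complex I. Sdha was at 350, 354 and 353 CPM untreated and 378, 386 and 384 CPM treated (0.12 ± 0.03 log2, adjusted p = 0.00523), without overlap, a call lost with total-count scaling (adjusted p = 0.187). Uqcr10 went from 77.9, 77.7 and 77.8 to 90.7, 94.9 and 99.5 CPM (0.29 ± 0.05 log2, adjusted p = 5.11e-05), Uqcrc2 from 265, 255 and 249 to 282, 292 and 285 CPM (0.16 ± 0.04 log2), and Uqcrfs1 from 190, 188 and 185 to 210, 213 and 212 CPM (0.17 ± 0.04 log2). All 3 were without overlap and called.

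Cox7b was at 99.9, 97.3 and 91.2 CPM untreated and 103, 106 and 105 CPM treated (0.13 ± 0.04 log2, adjusted p = 0.0139). Its call was lost without untreated replicate 3 or treated replicate 2 or 3 of the knock-in and with total-count scaling (adjusted p 0.00106 to 0.231 over 21 alternatives). The other call in complex IV was Cox7a2 (0.15 log2), a subunit of the same family as Cox7a1. Cox4i1, at 301, 302 and 301 CPM untreated and 317, 320 and 330 CPM treated, did not overlap but had an adjusted p of 0.0504. In complex V all 5 head genes rose again. Atp5a1 went from 960, 952 and 951 to 1081, 1100 and 1131 CPM (0.21 ± 0.04 log2, adjusted p = 3.09e-05). Atp5b went from 1390, 1380 and 1369 to 1509, 1494 and 1517 CPM (0.13 ± 0.03 log2, adjusted p = 0.00475; lost with total-count scaling, 0.141). Atp5g3 went from 303, 292 and 297 to 362, 357 and 374 CPM (0.29 ± 0.04 log2, adjusted p = 3.85e-07), the smallest adjusted p of the 82 in this comparison.

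**Figure D3:**
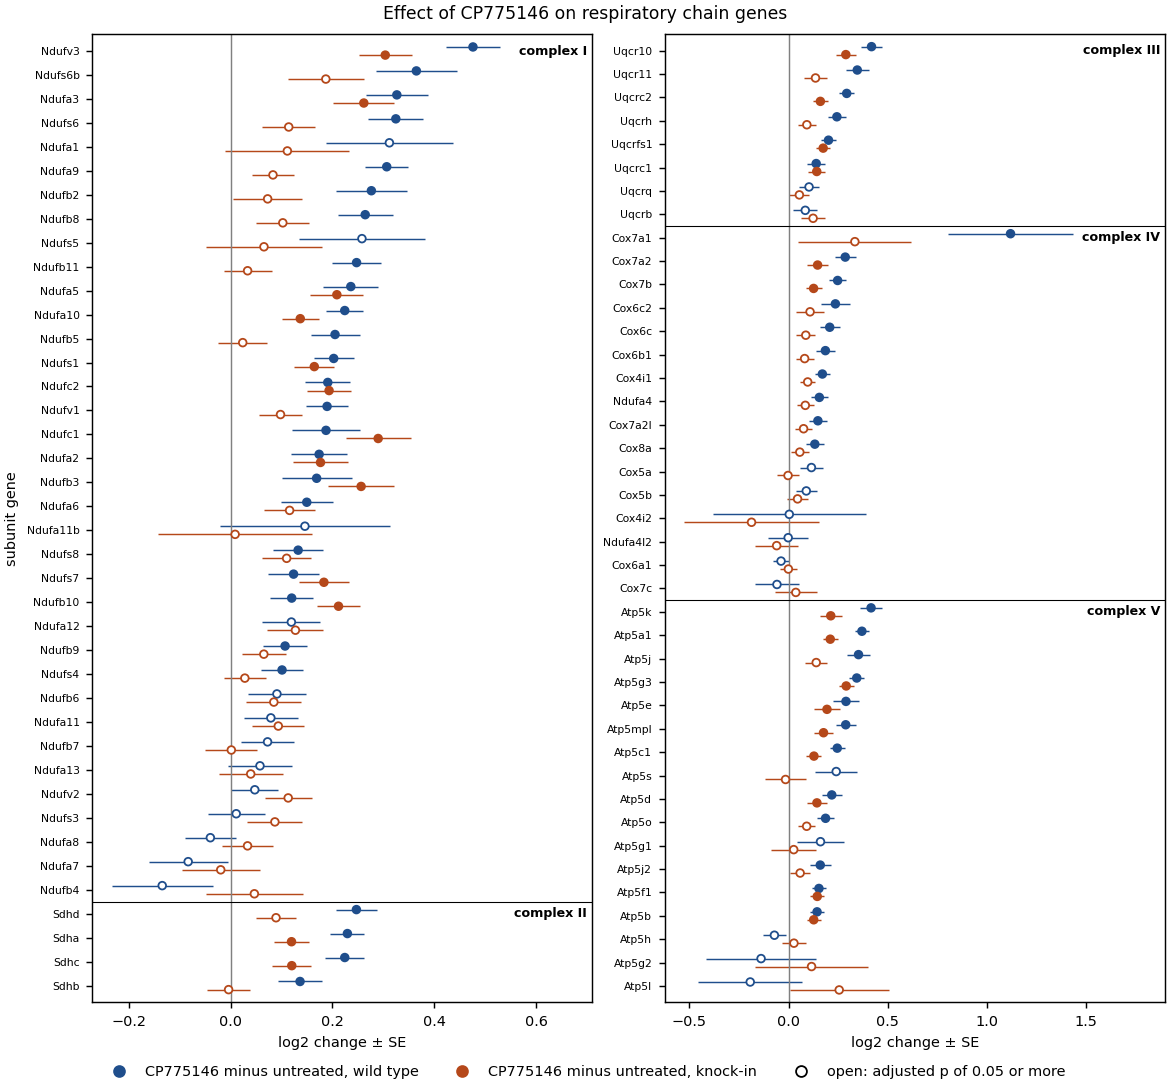
log2 change with CP775146 (± SE, edgeR, n = 3 libraries per group) of 81 of the 82 genes in wild type (blue) and knock-in (orange), ordered by complex and by the wild-type change, with filled points for an adjusted p below 0.05 (the 2 panels have different axes). The 55 filled blue and 28 filled orange points all lie right of 0, and 62 of all 82 genes have the larger estimate in wild type.

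Whether the agonist's effect differed between genotypes was tested with the interaction term. Of the 82 genes, 2 were called with a smaller effect in the knock-in and 0 with a larger one, against 4.33% and 2.78% of all genes tested. How the 2 genes (2.44%) compare with the background depended on the setting. At an unadjusted p below 0.05 there were 18 (22.0%, against 11.3% of all genes) and 0, with limma voom 8 (9.76%, against 5.13%) and 0, without a low-count filter 6 (7.32%, against 3.1%) and 0, and with DESeq2 2 (2.44%, against 4.02%) and 0. The estimate was below 0 for 62 genes and above 0 for 20, against 8049 and 7615 of all 15664 genes. The median was -0.07 log2, beside -0.01 for all genes. It was -0.02 log2 without treated wild-type replicate 3 and -0.11 log2 without treated wild-type replicate 2, beside 0.01 for all genes each time. For the other 80 genes, a call in 1 genotype and not in the other is not shown to be a difference between them.

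The 2 genes were Ndufa9 and Ndufb11, both accessory subunits of complex I. Ndufa9 (chromosome 6, 126821721 to 126849136, minus strand) was at 94.4, 93.3 and 98.3 and then, with the agonist, 117, 114 and 123 CPM in wild type, and at 97.8, 95.2 and 91.0 and then 97.4, 101 and 102 CPM in the knock-in. The treated libraries were above all others in wild type and overlapped the untreated ones in the knock-in (0.31 ± 0.04 against 0.08 ± 0.04 log2, difference -0.22 ± 0.06, adjusted p = 0.0166). The call stood in 17 of 20 alternatives and was lost without untreated knock-in replicate 1, treated knock-in replicate 1 or treated wild-type replicate 3 (adjusted p 0.00565 to 0.0762). Ndufb11, X-linked (20615326 to 20617619, minus strand), was at 48.6, 47.8 and 51.4 and then 57.4, 57.2 and 60.9 CPM in wild type, and at 51.8, 49.4 and 47.6 and then 48.7, 50.9 and 52.6 CPM in the knock-in. It showed the same pattern (0.25 ± 0.05 against 0.03 ± 0.05 log2, difference -0.21 ± 0.07, adjusted p = 0.0489), but its call stood in 8 of 20 alternatives (0.0217 to 0.161) and was lost without 8 of the 12 libraries in turn, all but untreated wild-type replicate 3, treated wild-type replicate 2 and replicate 3 of each knock-in group. Both genes overlap an exon of another gene, Ndufa9 over 3.19% (1700018A23Rik) and Ndufb11 over 12.9% (Rbm10) of its exons. The number of genes called fell to 0 without untreated or treated knock-in replicate 1 or treated wild-type replicate 3, and rose to 12 (14.6%, against 5.53% of all genes) without untreated wild-type replicate 3 and to 6 (7.32%, against 3.68%) without treated wild-type replicate 2.

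The genotypes were first compared without the agonist. In the knock-in 14 of the 82 genes were higher (17.1%) and 11 lower (13.4%), near or below the 18.4% and 18.6% among all genes tested. The subunit median was 0.02 log2 and that of all genes 0.00. Without overlap of the groups, 16 of the 82 genes were higher and 18 lower, against 23.6% and 23.8% of all genes. With the agonist these were 2 and 23, against 24.9% and 26.3%. With total-count scaling, which moved the median of all genes by 0.10 log2, 35 genes were higher and 2 lower (Ndufa4l2 and Cox7a2l), so the number of genes in each direction rests on the scaling. Without untreated wild-type replicate 1 or 2 the higher genes numbered 8 and 9. The lower genes numbered 6 or 7 without untreated knock-in replicate 2 or 3, treated knock-in replicate 2 or 3 or untreated wild-type replicate 2, and 7 with DESeq2. This comparison uses the same untreated wild-type libraries as the agonist comparison in wild type.

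The largest difference was that of Ndufa4l2 (chromosome 10, 127514939 to 127517152, plus strand; its exons overlap Shmt2 over 3.13%). It was at 172, 192 and 147 CPM in untreated wild type and 69.6, 70.5 and 66.5 CPM in the untreated knock-in, at 0.405-fold (-1.31 ± 0.11 log2, adjusted p = 7.23e-06). With the agonist it was at 173, 152 and 185 CPM in wild type and 61.8, 70.8 and 65.5 CPM in the knock-in (-1.36 ± 0.11 log2, adjusted p = 4.2e-06). Every knock-in library lay below every wild-type library, and both calls stood in all 21 alternatives, total-count scaling included. The summed endothelial and stellate markers were also lower in the knock-in. In wild type the endothelial sum was 142 to 161 CPM untreated and 99.6 to 110 CPM treated, and the stellate sum 188 to 220 and 160 to 198 CPM. The part of these markers in the Ndufa4l2 difference was not tested.

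Cox7a2l, counted here with complex IV, was also lower in the knock-in. It was at 59.5, 58.8 and 58.8 CPM in untreated wild type and 47.0, 47.9 and 46.9 CPM in the untreated knock-in (0.801-fold, -0.32 ± 0.05 log2, adjusted p = 9.49e-07), and at 66.4, 62.3 and 67.6 against 50.0, 51.7 and 47.8 CPM with the agonist (-0.39 ± 0.04 log2, adjusted p = 1.48e-08). The genotypes were apart in both conditions and both calls stood in all 21 alternatives. In wild type Cox7a2l rose with the agonist by 0.15 ± 0.04 log2 (adjusted p = 0.00688, lost with total-count scaling at 0.377). Uqcrq, a small complex III subunit, was at 216, 240 and 208 CPM in untreated wild type and 197, 190 and 183 CPM in the untreated knock-in (-0.22 ± 0.05 log2, adjusted p = 0.00135, and 0.0537 with total-count scaling). With the agonist it was at 243, 218 and 252 against 194, 197 and 201 CPM (-0.27 ± 0.05 log2, adjusted p = 0.000135).

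Among the genes higher in the untreated knock-in, Atp5k had the smallest adjusted p of complex V, at 43.1, 41.8 and 44.6 CPM against 35.3, 32.9 and 39.5 CPM in wild type (0.27 ± 0.06 log2, adjusted p = 0.000436). Sdhd was at 183, 178 and 168 CPM against 157, 158 and 165 CPM (0.14 ± 0.04 log2, adjusted p = 0.00616), a difference whose groups lay close. Both calls stood in all 21 alternatives, as did that of Cox6b1 (0.16 ± 0.05 log2, adjusted p = 0.00787). Uqcr10 (0.16 log2, adjusted p = 0.0158) lost its call without untreated wild-type replicate 1 or 2, Cox7b (0.13, 0.0153) without untreated knock-in replicate 1 or untreated wild-type replicate 2, and Atp5g3 (0.12, 0.0171) without replicate 1 of either. Atp5a1 (0.10, 0.0374) lost it without any of the untreated libraries except wild-type replicate 3. Ndufs4 was lower, at 59.9, 58.9 and 58.6 CPM against 66.9, 64.7 and 65.9 CPM in wild type (-0.15 ± 0.04 log2, adjusted p = 0.00378). Ndufb9 was at 107, 107 and 109 CPM against 114, 120 and 123 CPM (-0.15 ± 0.04 log2, adjusted p = 0.00791). The groups of both did not overlap, nor did those of Cox4i1 (-0.14 ± 0.04 log2, adjusted p = 0.00553), and all 3 kept the direction but lost the call with total-count scaling (0.335, 0.43 and 0.472).

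With the agonist in both genotypes, 3 of the 82 genes were higher in the knock-in (Ndufa4, Ndufb3 and Ndufb6) and 21 lower (25.6%), against 20.5% higher and 22% lower among all genes tested. The subunit median was -0.05 log2, beside -0.01 for all genes. But with total-count scaling, which moved the median of all genes to 0.12 log2, the subunit median was 0.09. On that scaling 27 genes were higher and 4 lower (Ndufa4l2, Cox7a2l, Cox7a2 and Uqcrq). Without treated wild-type replicate 3 there were 6 higher and 13 lower genes, without treated wild-type replicate 2 there were 0 and 25, and without treated knock-in replicate 2 or 3 the higher genes numbered 1. Of the 59 genes without exon overlap 13 were lower. In complex I, 10 of 37 genes were lower, among them Ndufa9 (-0.23 log2), Ndufs4 (-0.23), Ndufv3 (-0.22) and Ndufb9 (-0.19). Sdha was lower by 0.17 and Sdhb by 0.13 on the log2 scale in complex II, and Cox4i1 by 0.21 in complex IV. The difference of Uqcrc2 (-0.09 ± 0.04 log2, adjusted p = 0.0483) stood in 5 of 21 alternatives, was lost without any 1 of 10 libraries, and was 0.05 log2 with total-count scaling.

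**Figure D4:**
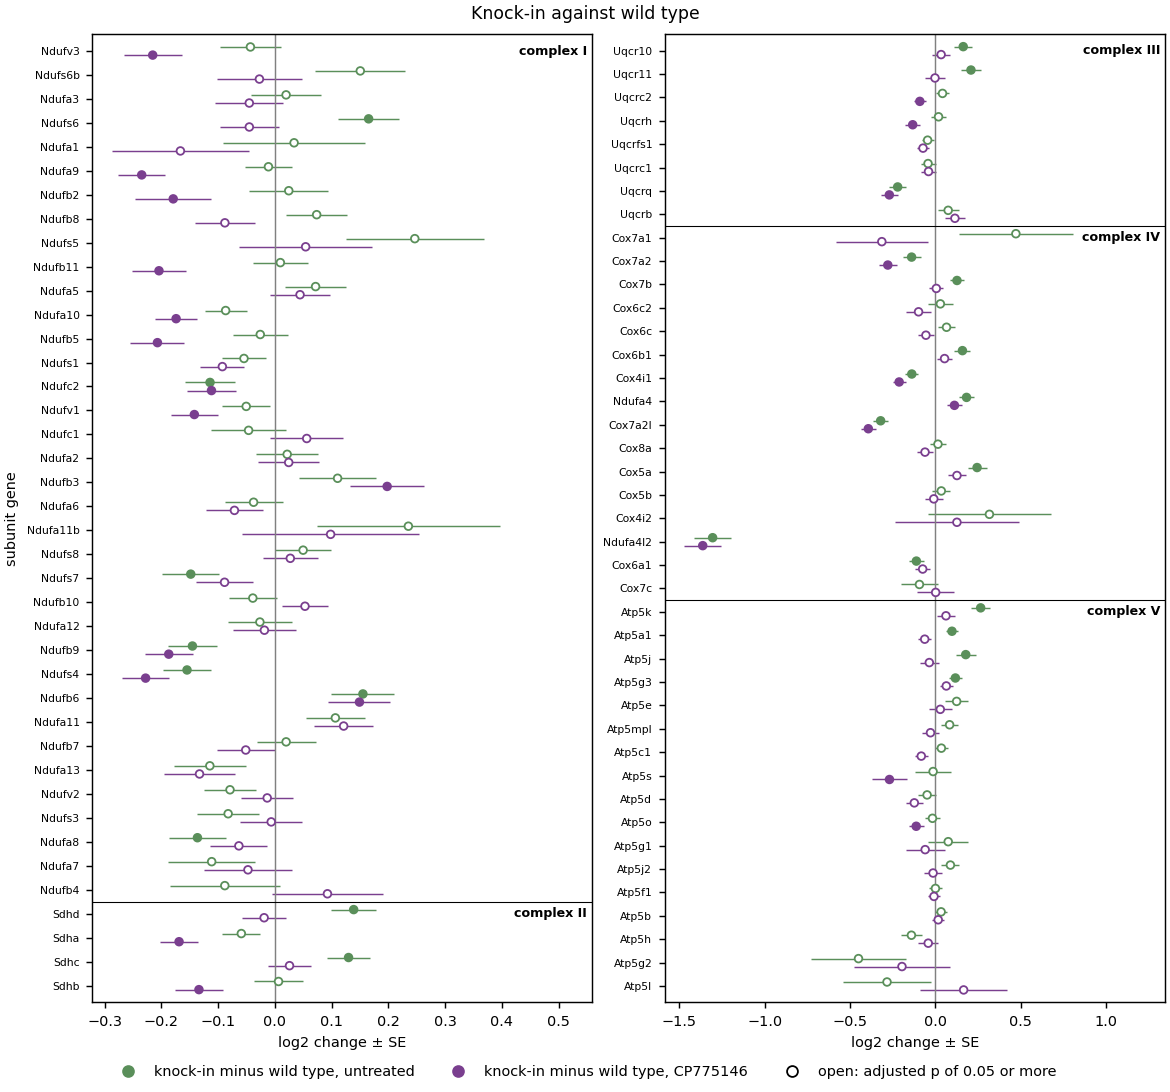
log2 difference between knock-in and wild type (± SE, edgeR, n = 3 libraries per group) of 81 of the 82 genes without the agonist (green) and with it (purple), filled where the adjusted p is below 0.05 (the 2 panels have different axes). Ndufa4l2 lies near -1.3 in both conditions and all other genes shown within 0.5 of 0; with total-count scaling most points shift right, over all 82 genes to 35 higher and 2 lower genes untreated and 27 and 4 treated.

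**Figure D5:**
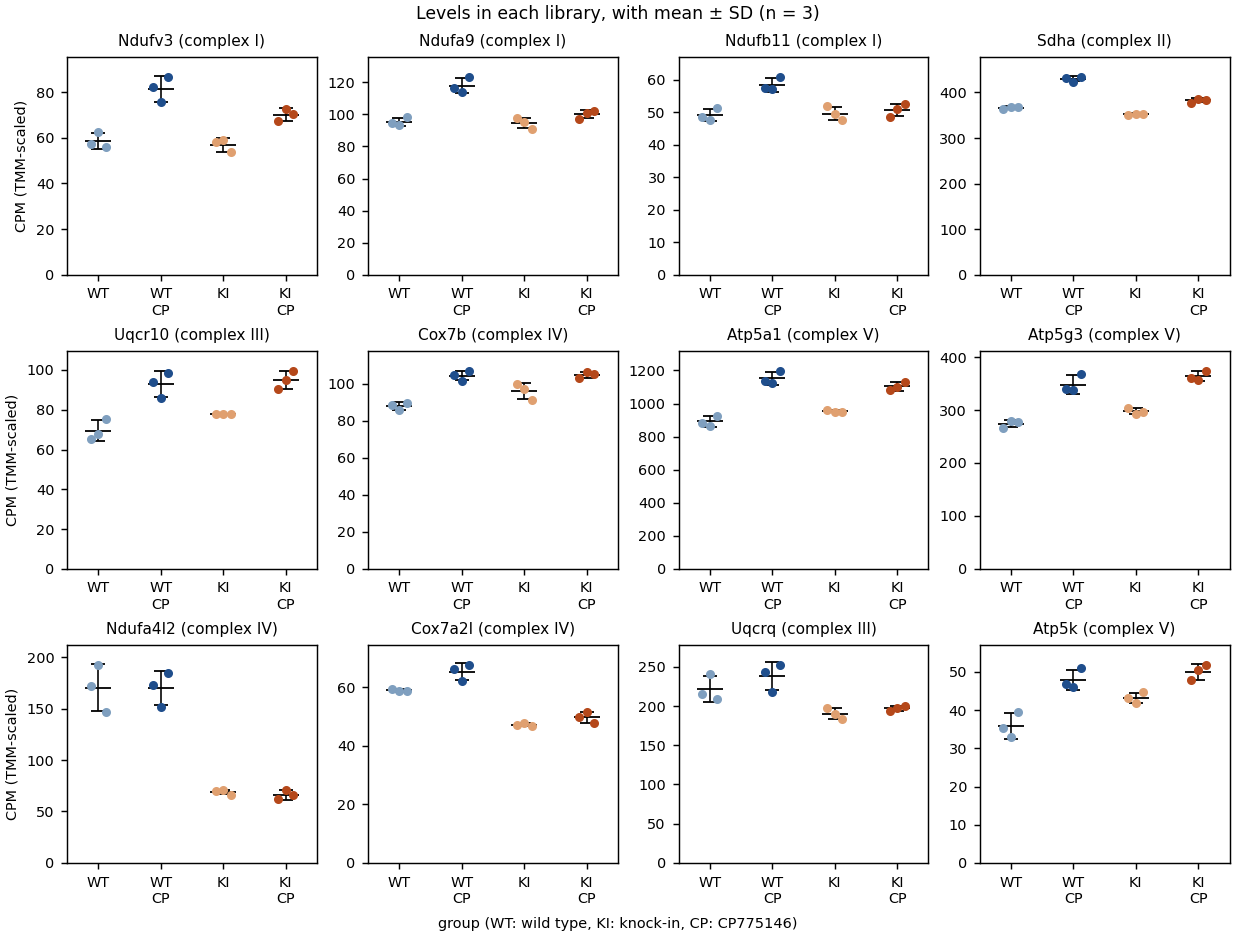
CPM on TMM-scaled library sizes of 12 genes in each of the 12 libraries, by group, with the mean and SD of 3 libraries. Ndufv3, Sdha, Uqcr10, Cox7b, Atp5a1, Atp5g3 and Atp5k are higher in the treated groups of both genotypes, Ndufa9 and Ndufb11 stand out in treated wild type, and Ndufa4l2, Cox7a2l and Uqcrq are lower in both knock-in groups.

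Genes that serve the chain without being subunits were counted by list. Of the 51 tested assembly factors, 24 rose (47.1%) and 1 fell (1.96%) in wild type, beside 22.7% and 22.3% of all genes. In the knock-in 24 rose (47.1%) and 1 fell (1.96%), beside 18.1% and 19.1% of all genes. Higd1a, a complex IV factor known from hypoxia, went from 26.5 to 45.5 CPM in wild type (0.78 ± 0.08 log2, adjusted p = 6.8e-08) and from 24.5 to 31.5 CPM in the knock-in (0.37 ± 0.08 log2, adjusted p = 0.000874), an effect that differed between genotypes (-0.41 log2, adjusted p = 0.026). Foxred1 and Timmdc1 of complex I assembly rose by 0.34 and 0.27 log2 in wild type and 0.18 and 0.22 in the knock-in. Tmem70, which helps to build the c-ring, rose by 0.21 and 0.33 log2 and Cox19, a copper-handling factor of complex IV, by 0.32 and 0.23. Ttc19, which maintains complex III, fell by 0.21 on the log2 scale in wild type but rose by 0.12 in the knock-in (difference 0.32, adjusted p = 0.00164). Sdhaf1, of complex II assembly, rose by 0.29 and 0.39 log2.

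The subunits with other symbols are Cycs, Cyc1 and Ndufab1. Cycs, somatic cytochrome c, which carries electrons from complex III to complex IV, went from 5.73 ± 0.07 to 12.8 ± 2.04 CPM in wild type (1.15 ± 0.10 log2, adjusted p = 8.83e-11) and from 6.45 ± 0.48 to 12.2 ± 0.24 CPM in the knock-in (0.92 ± 0.09 log2, adjusted p = 3.42e-09). The estimates of the 82 genes reached at most 1.12 log2 in wild type and 0.33 in the knock-in. Cyc1, the cytochrome of complex III, rose by 0.20 and 0.17 log2, and Ndufab1, the acyl carrier protein in complex I, by 0.22 in wild type, with 0.00 in the knock-in. The interaction term called 0 of these 3 genes, so a difference between the genotypes is not shown for them. The 13 mitochondrially encoded subunits had 0 counts in every library, a value not read as absence since how reads from that chromosome were handled is not given in the sources used here.

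The 3 genes that bring electrons from fatty acid oxidation to ubiquinone rose in both genotypes, and more in wild type. Etfdh, the ubiquinone oxidoreductase, rose from 181 to 652 CPM in wild type and from 220 to 504 CPM in the knock-in (1.85 and 1.19 log2, difference -0.66, adjusted p = 1.83e-07). Etfb and Etfa, the electron transfer flavoprotein, rose by 1.45 and 0.59 log2 in wild type and 1.02 and 0.40 in the knock-in (differences -0.43 and -0.20, adjusted p = 0.000488 and 0.0263). Of 13 citric acid cycle genes 10 rose in wild type (76.9%) and 12 in the knock-in (92.3%), beside 22.7% and 18.1% of all genes. They were led by Suclg2 (0.75 and 0.56 log2), Suclg1 (0.60 and 0.44) and Cs, citrate synthase (0.36 and 0.32). Of 10 coenzyme Q genes 7 rose in wild type (70%), and 6 rose (60%) and 1 fell (10%, beside 19.1% of all genes) in the knock-in. Coq3 was among those that rose (0.74 and 0.40 log2, difference adjusted p = 0.0152). Ucp2, an inner-membrane carrier, rose from 8.75 to 135 CPM in wild type and from 11.1 to 105 CPM in the knock-in.

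Of 14 regulators of respiratory genes, 5 rose and 3 fell in wild type, and 4 rose and 3 fell in the knock-in. These are 35.7% and 21.4% in wild type and 28.6% and 21.4% in the knock-in. Among all genes 22.7% rose and 22.3% fell in wild type, and 18.1% rose and 19.1% fell in the knock-in. The falls of the regulators were thus near the shares among all genes. Ppargc1a, the coactivator best known for raising mitochondrial genes, was at 11.8, 10.9 and 13.7 and then, with the agonist, 5.62, 5.89 and 5.17 CPM in wild type, and at 15.2, 15.4 and 16.1 and then 7.14, 5.92 and 7.71 CPM in the knock-in. It fell by 1.12 ± 0.10 on the log2 scale in wild type (adjusted p = 1.33e-10) and by 1.16 ± 0.09 in the knock-in (7.65e-12), the direction opposite to that of the subunit genes. Nrf1, the factor whose motif was searched above, fell by 0.37 and 0.22 on the log2 scale (adjusted p = 4.97e-06 and 0.00322). Slirp, which stabilises mitochondrial mRNAs, rose by 0.33 and 0.23 log2.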

How the data were processed

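RNA-seq libraries were made from total RNA of cultured primary hepatocytes, 3 in each of 4 groups. The deposited values are raw counts per gene; per the file headers they were counted with featureCounts 1.6.2 by exon and gene, without strand, multi-mapping reads or reads over more than 1 gene. The submitters' processing notes name FastQC 0.11.2, cutadapt 1.9, Subread, featureCounts 1.4.6-p4, edgeR 3.18.1, mm10 and Ensembl 83. The aligner's settings are not given in the sources used here. Symbols were matched for all but 495 of 46983 genes.

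Counts were tested with edgeR 4.0.16 in R 4.3.3 (quasi-likelihood, robust, TMM scaling, filterByExpr with a minimum count of 10 and total of 15, 1 term per group, all 12 libraries), with Benjamini-Hochberg adjustment over the 15664 genes kept in each of 5 contrasts and a call below 0.05. CPM use TMM-scaled library sizes; RPKM divide them by summed exon length. Total counts of 26956032 to 34885451 per library set the precision, and intervals and the limit of 3 counts cover counting error only. The fit was tested on simulated data. No 2 libraries of a group agreed within sampling noise. Same-numbered libraries did not deviate together (correlations of -0.026 to 0.063), so the numbers were not used as pairs.

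The fit was repeated with DESeq2 1.42.0, with limma 3.58.1 voom, under RLE or total-count scaling, with other filters, on the 2 groups alone, with a replicate block, and without each library in turn. The members, lists and tests were chosen with earlier results of these data known. Per-library values are given for the gene of each complex with the smallest adjusted p in the agonist comparisons and in the untreated genotype comparison, the gene with the highest RPKM, Sdha, Uqcrfs1, Cox4i1 and Atp5b, those called in the interaction, and the tissue isoforms; of each companion list up to 3 genes with the smallest adjusted p. Other genes, such as Ndufa3, Atp5d and Cox7a2, were named after their values were seen. A gene counted among the 82 is not reported here by name.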

Additional observations from a re-analysis of the deposited data

Results flagged for a closer look

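The effect of CP775146 differed between the genotypes for Ndufa9 (-0.2234 log2, knock-in minus wild type) and Ndufb11 (-0.2139 log2), by the test of that difference itself. The 2 genes are 2.44% of the 82, against 4.33% of all genes tested, while limma voom called 9.76% against 5.13% and the fit without untreated wild-type replicate 3 called 14.6% against 5.53%. The Ndufb11 call was lost under 12 of 20 alternatives, and that of Ndufa9 under 3 of 20.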

How the results depend on the processing

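Total-count scaling moved most counts. It gave 35 higher and 2 lower genes in the untreated knock-in, 29 rises and 3 falls with the agonist in wild type, 15 rises in the knock-in, 27 higher and 4 lower genes in the treated knock-in, and 1 gene with a smaller effect in the knock-in. The subunit medians in these 4 comparisons moved to 0.12, 0.08, 0.05 and 0.09 log2, while their distance from the median of all genes stayed at 0.02, 0.18, 0.12 and -0.04. Among all genes the split of higher and lower calls became 32.1% and 11.0%, 15.1% and 34.1%, 13.2% and 27.8%, and 38.0% and 11.9%. DESeq2 gave 7 lower genes in the untreated knock-in. The rises in the knock-in numbered 44 with limma voom and 49 with its 2 groups alone. RLE scaling gave 5 higher genes in the treated knock-in. Of the genes called lower there in the main fit, 13 had no exon overlap, a count made without a new fit. Genes with a smaller agonist effect in the knock-in numbered 1 with RLE scaling, 8 with limma voom and 6 without a low-count filter. With the replicate block there was 1. Both genes called in the main fit overlap an exon of another gene, so 0 remained when such members were left out. The replicate block gave 56 rises in wild type, 55 of them also called without it, and 33 in the knock-in, 28 of them also called without it. Leaving out each library gave 8 to 17 higher and 6 to 14 lower genes in the untreated knock-in, 40 to 64 rises in wild type, 20 to 39 rises in the knock-in, 0 to 6 higher and 13 to 25 lower genes in the treated knock-in, and 0 to 12 genes with a smaller effect. The difference of Uqcrc2 in treated cells changed sign, to 0.046 log2, with total-count scaling. Of 1152 values for 55 results on named genes, 1066 kept direction and call, 85 kept the direction and lost the call, and 1 reversed. With 2 alternatives chosen after seeing the data, the rises in wild type numbered 56 (TMM computed without the members and genes above 1000 CPM) and 54 (without processed pseudogenes). The causes were not tested.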
